A study of Mus musculus with 40 samples.

Results

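The miR-29 family was described here by 6 of the 1894 mature miRNA entries of the deposited table: the 3p arms miR-29a-3p, miR-29b-3p and miR-29c-3p, and the 5p arms miR-29a-5p, miR-29b-1-5p and miR-29c-5p. The entries were taken by name, though with earlier results of these data known, and all 6 had counts. The samples were small RNA libraries of brown fat, liver, gastrocnemius muscle and hypothalamus from 10 male mice aged 8 to 12 weeks on standard chow. Each tissue gave 5 libraries of the RNA that streptavidin captured through biotin on its thiol groups (the IP) and 5 libraries of total small RNA (the input), which makes 8 groups of 5 and 40 libraries. The labels name the transgenic strains Tg(CAG-GFP,-Uprt)985Cdoe/J and Tg(Ucp1-cre)1Evdr/J for the mice, and all groups received 4-thiouracil at 50 mg/kg by intraperitoneal injection, 4 times at intervals of 48 h. The Uprt gene encodes uracil phosphoribosyltransferase, which lets a cell build 4-thiouracil into new RNA. The Ucp1-cre driver takes its name from a gene of brown adipocytes, so the intended source of thiol RNA was brown fat, and the labels give the labelling of miRNAs from that tissue as the purpose of the injections. The transgenes of each mouse are not given in the labels, and no group without 4-thiouracil or without Cre was analysed here.

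A miRNA hairpin is cut into a duplex, of which usually 1 strand is kept in an Argonaute protein and the other is degraded. Bases 2 to 8 of the kept strand, its seed, pair with target messenger RNAs. The 3p arms of miR-29 are the strands usually kept. They are known for lowering the messenger RNAs of collagens, elastin and other matrix proteins, and of de novo DNA methyltransferases, and for acting on insulin signalling in liver, muscle and fat. The 5p arms are the passenger strands and are usually scarce.

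The mature sequences are shown because the 3p arms are nearly identical, whereas the 5p arms differ from each other. They come from the RefSeq table of GRCm38.p6, which held all 6, and the seed is in capitals.
mmu-miR-29a-3p: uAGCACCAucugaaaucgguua
mmu-miR-29b-3p: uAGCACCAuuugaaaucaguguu
mmu-miR-29c-3p: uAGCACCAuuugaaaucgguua
mmu-miR-29a-5p: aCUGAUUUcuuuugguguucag
mmu-miR-29b-1-5p: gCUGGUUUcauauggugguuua
mmu-miR-29c-5p: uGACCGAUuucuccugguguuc
The seed AGCACCA was shared by the 3 3p arms and by no other entry with a sequence (1610 entries). Counted from the 5′ end, miR-29c-3p differed from miR-29a-3p by C10U, and miR-29b-3p differed from miR-29c-3p by G18A, U21G and A22U. The authors' counting could therefore divide a read between 3p entries, and their shares are uncertain to that extent. Each of the 5p seeds occurred in 1 entry.

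The family has 4 hairpins at 2 loci of the mouse genome. Mir29a (chr6:31062660-31062747) and Mir29b-1 (chr6:31063023-31063093) lie on the minus strand with 275 bases between them. Mir29b-2 (chr1:195037040-195037120) and Mir29c (chr1:195037547-195037634) lie on the plus strand with 426 bases between them. In GENCODE M21, Mir29b-2 and Mir29c fall in exons of the non-coding A330023F24Rik on the same strand and overlap an exon of Cd46 on the opposite strand. Mir29b-1 falls in an exon of the lincRNA Gm27019, and Mir29a in no other annotated gene. miR-29b-3p is cut from both Mir29b-1 and Mir29b-2, so its count belongs to both loci, whereas miR-29b-1-5p comes from Mir29b-1 alone. The Mir29b-1 hairpin is printed because its arms behaved unlike each other below; both mature arms are in capitals, the 5p arm first.
Mir29b-1: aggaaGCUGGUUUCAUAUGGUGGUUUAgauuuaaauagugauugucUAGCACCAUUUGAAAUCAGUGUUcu

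Library totals ran from 11928 to 921297 counts in the IPs and from 153036 to 5562487 in the inputs. Levels are given in counts per 1000000 counted miRNA reads (CPM). The library names place all IPs in pool 2 and all inputs in pool 1, so type and pool cannot be told apart. The tissue labels were checked with 3 miRNAs for each tissue, and for each of the 4 tissues all 3 were highest in its own inputs. Some libraries stood apart. Hypothalamus input 4, the shallowest input, had a summed level of 3 striated muscle miRNAs of 189000 CPM, against 1530 to 2560 CPM in the other hypothalamus inputs, and of 3 liver miRNAs of 22900 CPM, against 1160 to 1310 CPM. Its neuron miRNAs summed to 48000 CPM and those of hypothalamus input 5 to 65800 CPM, against 183000 to 197000 CPM in inputs 1 to 3. Liver IP 4, the shallowest IP, had striated muscle miRNAs at 16300 CPM, against 452 to 1340 CPM in the other liver IPs. Brown fat inputs 1 to 5 all held much of these muscle miRNAs, at 293000, 69000, 186000, 132000 and 113000 CPM. Their part in the comparisons of brown fat with other tissues was not tested.

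In the inputs, miR-29a-3p was the abundant member in every tissue. Its level in CPM fell into a high pair, hypothalamus and brown fat, and a low pair, liver and muscle. It averaged 26840 ± 13690 CPM in hypothalamus, 26100 ± 12310 CPM in brown fat, 6542 ± 2839 CPM in liver and 3291 ± 508 CPM in muscle inputs (SD, n = 5 each). In bulk tissue, fewer cells of a type and less RNA per cell cannot be told apart. The hypothalamus inputs had 23890, 28350, 49420, 17800 and 14710 CPM, and the brown fat inputs 14260, 22340, 25640, 21430 and 46840 CPM. The liver inputs had 5294, 7672, 3579, 10900 and 5265 CPM, and the muscle inputs 3103, 3912, 2581, 3616 and 3245 CPM. In CPM, every hypothalamus and brown fat input lay above every liver and muscle input, whereas hypothalamus overlapped brown fat and liver overlapped muscle. The share of all entries with such a separation was not counted. With the TMM scaling described below, miR-29a-3p was not called between hypothalamus and liver or between hypothalamus and muscle.

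miR-29b-3p and miR-29c-3p had the same order of means, but liver input 4, at 724.5 CPM of miR-29b-3p, lay above brown fat input 1, at 353.5 CPM. miR-29b-3p averaged 2779 ± 3358 CPM in hypothalamus, 1445 ± 816 CPM in brown fat, 301.0 ± 244.2 CPM in liver and 108.4 ± 49.2 CPM in muscle inputs (SD, n = 5 each). miR-29c-3p averaged 729.5 ± 760.5 CPM in hypothalamus, 455.2 ± 355.3 CPM in brown fat, 99.98 ± 67.74 CPM in liver and 74.76 ± 25.97 CPM in muscle inputs. The hypothalamus SDs were as large as the means because input 3 held 8762 CPM of miR-29b-3p and 2085 CPM of miR-29c-3p, while the next highest hypothalamus input held 1694 CPM and 488.4 CPM of them.

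The 5p arms were scarce in every input. miR-29c-5p averaged 35.62 ± 25.99 CPM in hypothalamus, 23.64 ± 9.14 CPM in brown fat, 5.879 ± 0.892 CPM in liver and 14.07 ± 5.56 CPM in muscle inputs, so that for this arm muscle stood above liver. The 5 liver values were 4.41, 6.637, 5.881, 5.919 and 6.548 CPM and the 5 muscle values 7.858, 12.07, 10.72, 18.65 and 21.06 CPM, with no overlap. The share of all entries without overlap between these groups was not counted, so nothing particular to this arm is read from it. miR-29a-5p averaged 15.16 ± 15.99 CPM in hypothalamus, 14.38 ± 11.19 CPM in brown fat, 1.877 ± 0.821 CPM in liver and 2.437 ± 1.232 CPM in muscle inputs. miR-29b-1-5p averaged 0.8752 ± 0.5957, 1.642 ± 0.991, 1.218 ± 1.324 and 0.3712 ± 0.3074 CPM in the same order of tissues, which is a sum of 6 to 10.5 counts a group.

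**Figure D1:**
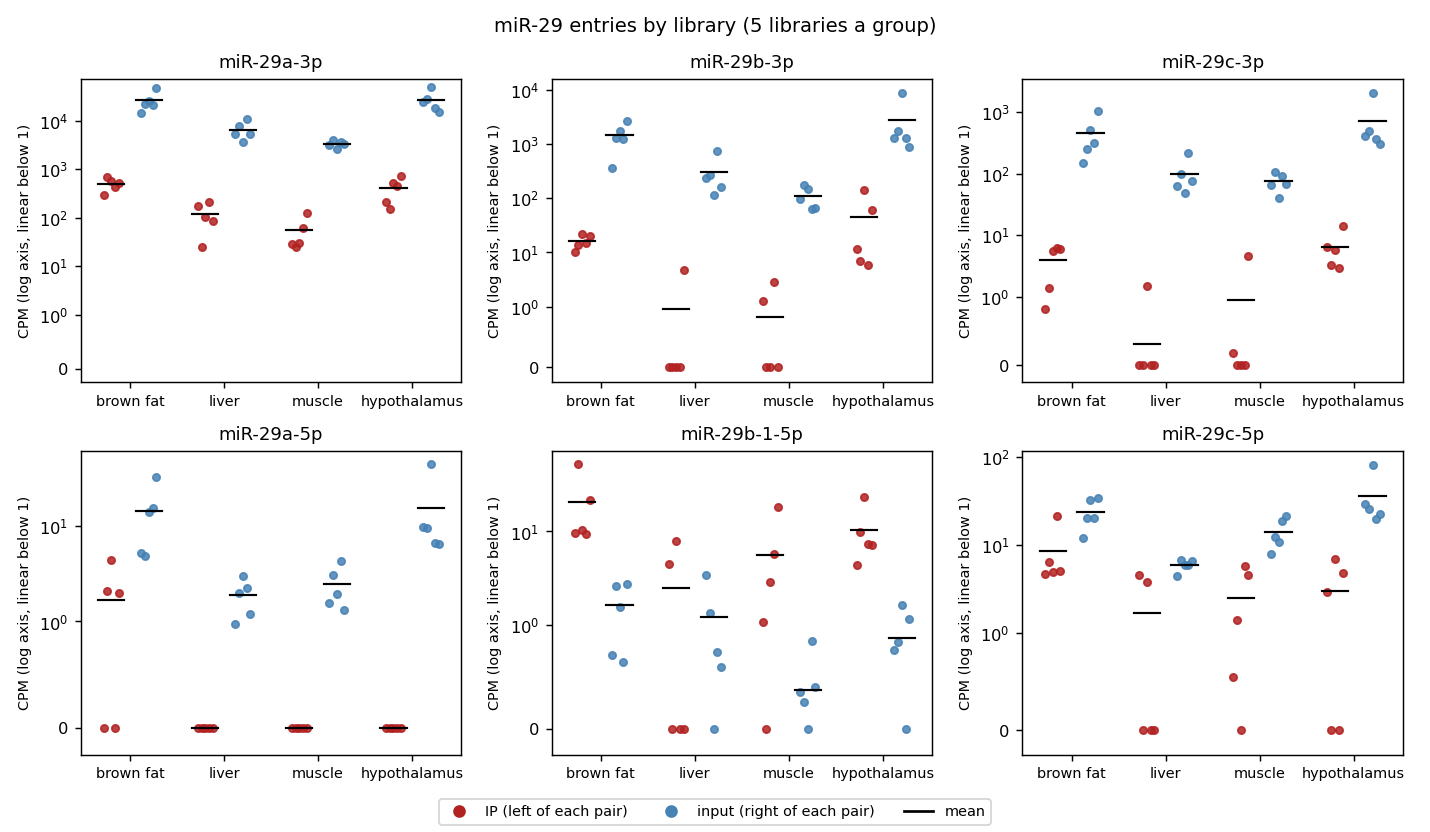
Level of each miR-29 entry in CPM (y axis, log scale, linear below 1) in each library; IP points are left of input points in each tissue, 5 libraries a group, and the bar is the mean. The 3p entries sit lower in every IP group than in its input group, whereas miR-29b-1-5p sits higher in the brown fat and hypothalamus IPs, at means of 20.68 and 10.41 CPM against 1.642 and 0.8752 CPM in the inputs.

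How far tissues differed depended on the scaling of the libraries. The main scaling (TMM) assumes that most entries do not change, and the alternative divides by the total count. With edgeR's quasi-likelihood test and TMM, miR-29a-3p was higher in brown fat than in liver inputs, with a log2 difference estimated at 0.74 (adjusted p = 0.0168, SE 0.24), and higher than in muscle inputs, at 0.79 (SE 0.24, adjusted p = 0.012). With total count the same differences were 2.0 (adjusted p = 7.22e-05) and 2.99 (adjusted p = 4.49e-07). Total count scaling moved the median of all entries by 1.25 and 2.09 in these comparisons, so relative to that shift the values differ little. The total count fits called 284 entries higher and 26 lower in brown fat against liver (117 and 87 with TMM), and 365 and 7 against muscle (101 and 77). Both TMM calls of miR-29a-3p were lost with the mouse as a block, at 0.30 (adjusted p = 0.595) and 0.73 (adjusted p = 0.097), with no filter (adjusted p = 0.0883 and 0.105) and without brown fat input 5. The call against liver was also lost without liver input 3, and the call against muscle with RLE scaling (0.58, adjusted p = 0.0735). The lowest values with an input left out were 0.53 and 0.60. Only mouse 4 gave both a brown fat and a liver input, and only mice 2 and 8 gave both a brown fat and a muscle input. Block fits between inputs thus hold little comparison within a mouse.

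Of the 5 members tested between inputs, 2 were called higher in brown fat than in liver, where 26.4% of all entries were called higher. These were miR-29a-3p and miR-29a-5p (1.54, SE 0.61, adjusted p = 0.0458). The miR-29a-5p call was lost in 12 of 20 fits that left out 1 input, with RLE scaling (1.46, adjusted p = 0.0638), DESeq2 (1.47, adjusted p = 0.0701) and with the mouse as a block (0.64, adjusted p = 0.577). Against muscle inputs, 2 members were called higher in brown fat, where 22.7% of all entries were, and 1 lower, where 17.3% were. miR-29b-3p differed by 1.45 (standard error 0.52, adjusted p = 0.0306), a call lost in 5 of 20 fits that left out 1 input, with RLE scaling (1.27, adjusted p = 0.0508) and with the mouse as a block (1.17, adjusted p = 0.226). miR-29c-5p was the lower entry, at -1.38 with TMM (SE 0.29, adjusted p = 0.000645), but its sign turned with total count (0.74, adjusted p = 0.0797).

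Between hypothalamus and brown fat inputs no member was called with TMM, in a comparison where 84.0% of all entries were called in either direction. The difference for miR-29a-3p was -0.39 (95% interval -0.86 to 0.08, adjusted p = 0.135), and it passed the threshold without hypothalamus input 3, at -0.63. Between hypothalamus and liver inputs 3 members were called higher, where 48.9% of all entries were: miR-29b-3p (1.44, SE 0.52, adjusted p = 0.0161), miR-29c-3p (1.13, SE 0.44, adjusted p = 0.023) and miR-29c-5p (0.84, SE 0.34, adjusted p = 0.028). All 3 calls were lost without hypothalamus input 3 and with the mouse as a block, where the differences were 0.42 (adjusted p = 0.592), 0.08 (adjusted p = 0.885) and 0.67 (adjusted p = 0.11). Only mice 4 and 9 gave both a hypothalamus and a liver input, so that block fit has the same limit. Single liver inputs also decided the calls of miR-29c-3p and miR-29c-5p, which were lost in 3 and 2 of the fits that left out a liver input. The miR-29c-5p call was also lost with RLE scaling (0.65, adjusted p = 0.106), DESeq2 (0.66, adjusted p = 0.146) and no filter (0.94, adjusted p = 0.0563). For hypothalamus against liver, miR-29a-3p was not called with TMM (0.35, SE 0.24, adjusted p = 0.191), where the median of all entries was 0.90. With total count it was called higher (2.04, adjusted p = 3.05e-05).

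Between hypothalamus and muscle inputs miR-29b-3p was called higher (1.87, SE 0.53, adjusted p = 0.00283), where 52.0% of all entries were, and lost the call with the mouse as a block (1.34, adjusted p = 0.076). miR-29c-5p was called lower with TMM (-1.22, SE 0.29, adjusted p = 0.000619), where 31.1% were, and called higher with total count (1.38, adjusted p = 0.00247). For hypothalamus against muscle, miR-29a-3p was not called with TMM (0.40, SE 0.24, adjusted p = 0.128), where the median of all entries was 0.83. With total count it was called higher (3.03, adjusted p = 1.69e-07). Between liver and muscle inputs miR-29c-5p alone was called, lower in liver at -2.05 (SE 0.33, adjusted p = 2.71e-05), where 27.3% were. That call held in all 28 fits run, between -2.25 and -1.23. miR-29a-3p differed there by 0.06 with TMM (95% interval -0.42 to 0.53) and by 0.99 with total count (adjusted p = 0.0206).

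**Figure D2:**
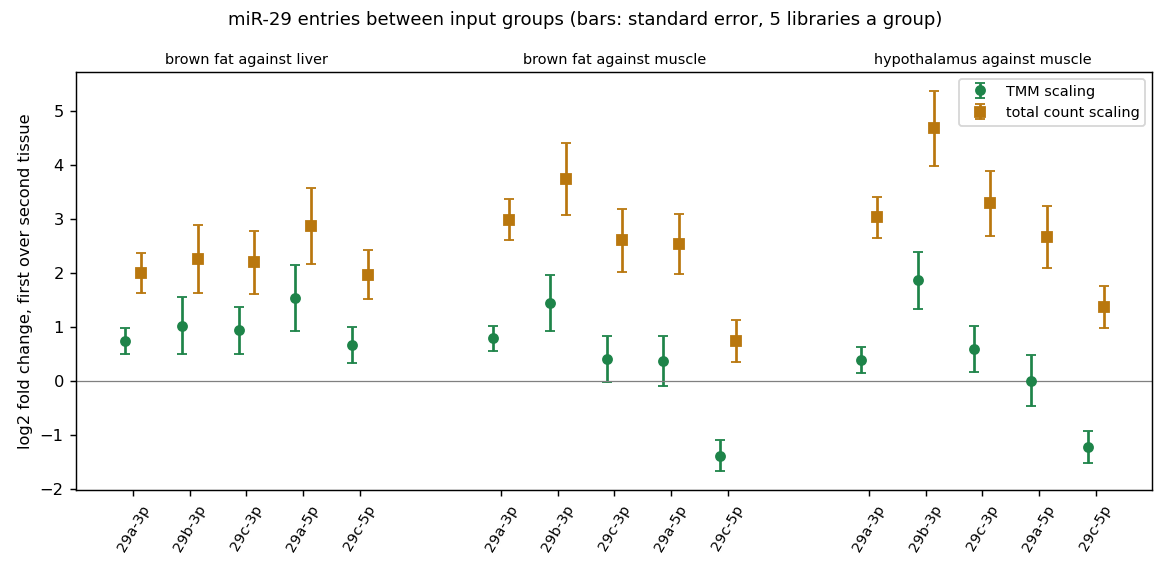
Log2 fold change of each tested miR-29 entry between input groups, first tissue over second (y axis), under TMM scaling (circles) and total count scaling (squares); bars are the standard error, 5 libraries a group. Total count raises every point, and miR-29c-5p, at -1.38 and -1.22 against muscle with TMM, moves to 0.74 and 1.38.

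In the IP, the 3p arms were depleted in all 4 tissues, brown fat included. miR-29a-3p averaged 493.7 ± 143.0 CPM in IPs against 26100 ± 12310 CPM in inputs of brown fat, and 118.6 ± 73.2 against 6542 ± 2839 CPM in liver (SD, n = 5 each). It averaged 54.67 ± 43.13 CPM in IPs against 3291 ± 508 CPM in inputs of muscle, and 413.4 ± 237.1 against 26840 ± 13690 CPM in hypothalamus. The IP mean was 52.9-fold lower in brown fat, 55.2-fold in liver, 60.2-fold in muscle and 64.9-fold in hypothalamus.

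The single libraries show the same. The brown fat IPs had 298.3, 676.0, 563.3, 421.3 and 509.5 CPM of miR-29a-3p, and the hypothalamus IPs 212.4, 154.3, 510.8, 449.7 and 739.9 CPM. The liver IPs had 172.4, 24.91, 101.7, 209.6 and 84.26 CPM, and the muscle IPs 28.76, 25.52, 30.24, 61.55 and 127.3 CPM. Each of these values was below every input of its tissue listed above, and the order of tissues among IP means was that of the inputs except that brown fat stood above hypothalamus. The liver values rest on 19, 4.67, 45.17, 2.5 and 17.5 counts, so they carry a wide counting error.

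With edgeR's quasi-likelihood test and TMM, miR-29a-3p fell in every IP. Its log2 fold change was -4.59 in brown fat (SE 0.32, adjusted p = 5.91e-09), -4.49 in liver (SE 0.47, adjusted p = 6.88e-09), -5.43 in muscle (SE 0.34, adjusted p = 1.18e-12) and -5.18 in hypothalamus (SE 0.52, adjusted p = 3.83e-06). The median of all tested entries was -0.34 in brown fat, -0.78 in liver, -1.41 in muscle and -1.04 in hypothalamus, and relative to it miR-29a-3p was at -4.25, -3.71, -4.02 and -4.14. The liver value was -4.40 without liver IP 4, and the hypothalamus value -5.19 without input 4 and -5.09 without input 5. Between 3 and 4 of the 6 members passed the filter on low counts in each tissue. The members called lower were 3 of 4 in brown fat, where 43.3% of all entries were called lower, 3 of 3 in liver (46.0%), 4 of 4 in muscle (56.3%) and 3 of 3 in hypothalamus (47.3%). In each tissue only miR-29a-3p reached the level of the filter in all 5 IPs. The other members tested passed through their inputs, so their calls were largely fixed by the filter and nothing is read from these counts. None was called higher, where 36.7%, 28.5%, 28.7% and 28.2% of entries were. Total count scaling moved the medians by -1.10, -1.61, -0.87 and -0.79 and split the calls of all entries into 55 higher and 174 lower in brown fat (112 and 132 with TMM), 29 and 135 in liver (57 and 92), 57 and 161 in muscle (77 and 151) and 53 and 153 in hypothalamus (77 and 129). RLE scaling gave 41 and 127 in liver. The 3 3p arms were called lower in all 18 fits run for each of them in each tissue, which for miR-29b-3p and miR-29c-3p carries the same limit.

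miR-29b-3p had 10.06, 13.91, 21.98, 15.05 and 20.36 CPM in the brown fat IPs, against 353.5, 1281, 1761, 1243 and 2586 CPM in the inputs. In the hypothalamus IPs it had 11.63, 7.067, 138.7, 5.898 and 60.44 CPM, against 1286, 1694, 8762, 1288 and 862.9 CPM in the inputs. The groups did not overlap in either tissue, and hypothalamus library 3, from the same mouse in both types, was the highest of each. The log2 fold change was -5.30 in brown fat (SE 0.46, adjusted p = 2.4e-08) and -4.86 in hypothalamus (SE 0.92, adjusted p = 0.000419), and -4.43 without hypothalamus input 3.

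In liver and muscle the IPs held almost no miR-29b-3p. The liver IPs had 1 count in all, against 1287 counts in the inputs, a 264-fold lower share of the counted reads with an exact 95% interval of 47.3 to 10400. The muscle IPs had 2.17 counts, against 2254 in the inputs, a 132-fold lower share (36.4 to 1090). Reads were counted without molecular identifiers, so such intervals cover counting error only. The tests called the fall at -6.22 in liver (SE 0.87, adjusted p = 6.98e-07) and -5.97 in muscle (SE 0.67, adjusted p = 1.53e-08). Without liver IP 5, which held the single count, all liver IPs were at 0 and the fitted value of -10.24 is no estimate of the fold. Leaving out another library gave -7.33 to -5.53 in liver.

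miR-29c-3p was lower than miR-29b-3p in the inputs and reached the counting limit in the IPs. It averaged 4.016 ± 2.686 CPM in IPs against 455.2 ± 355.3 CPM in inputs of brown fat, and 6.519 ± 4.477 against 729.5 ± 760.5 CPM in hypothalamus (SD, n = 5 each), with no overlap in either tissue. The falls were -5.75 in brown fat (SE 0.62, adjusted p = 2.7e-07) and -5.73 in hypothalamus (SE 0.75, adjusted p = 2.32e-05). The liver IPs held 0.67 counts against 432.76 in the inputs, and the muscle IPs 0.67 against 1565. With these rounded to 1, the IP share of reads was 88.7-fold lower in liver (15.8 to 3510) and 183-fold lower in muscle (32.8 to 7230). Liver was called at -4.66 (SE 0.89, adjusted p = 5.14e-05), and muscle was also called lower (adjusted p = 1.99e-08), but no fitted fold is given there, since every IP value was rounded to 0. The liver value likewise rests on IP 3, without which it was -8.65 with all IPs at 0. Both calls carry the limit given above for entries that passed the filter through their inputs.

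**Figure D3:**
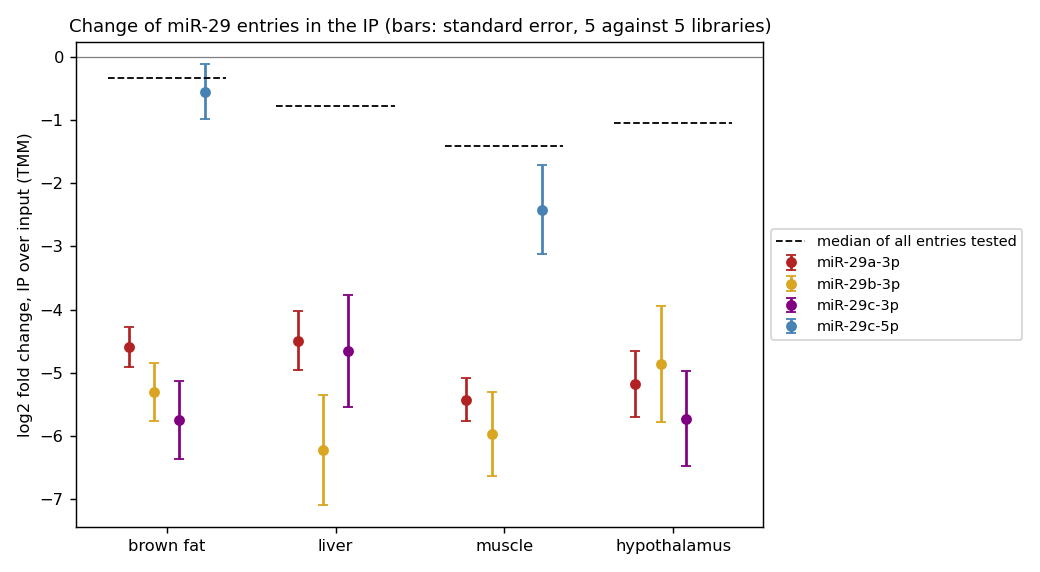
Log2 fold change of the tested miR-29 entries, IP over input with TMM scaling (y axis), in each tissue; bars are the standard error, 5 against 5 libraries, and the dashed line is the median of all entries tested. The 3p entries lie between -4.49 and -6.22 and miR-29c-5p nearer the median, at -0.55 in brown fat and -2.42 in muscle; muscle miR-29c-3p is left out because its rounded IP counts were all 0.

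Of the 5p arms, 1 went the other way. miR-29b-1-5p, the passenger strand of Mir29b-1, was the only member with a higher level in the IP. The brown fat IPs had 9.584, 52.21, 10.45, 9.497 and 21.65 CPM, against 0.7069, 2.58, 1.559, 0.6428 and 2.724 CPM in the inputs. The hypothalamus IPs had 4.355, 9.954, 23.18, 7.373 and 7.183 CPM, against 0.7538, 0.8361, 1.617, 0 and 1.169 CPM in the inputs. All 5 IPs exceeded all 5 inputs in both tissues, a pattern that 3.83% of all entries with counts showed in brown fat and 5.26% in hypothalamus. In muscle the IPs had 1.085, 0, 2.88, 5.726 and 18.19 CPM against 0.3545, 0.2555, 0, 0.8463 and 0.4 CPM in the inputs, and in liver 4.537, 0, 7.883, 0 and 0 CPM against 3.43, 1.327, 0, 0.7399 and 0.592 CPM. The groups overlapped in these tissues, where 6.05% of all entries had every IP above every input in muscle and 2.64% in liver.

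These levels rest on few reads: 35.6 counts in the brown fat IPs against 10.5 in the inputs, 4 against 6 in liver, 6 against 8 in muscle and 9 against 10.5 in hypothalamus. From the rounded sums, the share of reads was 12.8-fold higher in the brown fat IPs (exact 95% interval 6.2 to 28.8), 6.41-fold in muscle (1.83 to 21.1) and 10.4-fold in hypothalamus (3.73 to 28.4). In liver the ratio was 3.25 (0.675 to 13.7), an interval that includes no difference. The entry failed the filter in all 4 comparisons. In the fit with no filter it was called higher in brown fat (4.08, adjusted p = 5.07e-14), liver (2.48, adjusted p = 0.0307), muscle (2.6, adjusted p = 0.00529) and hypothalamus (3.30, adjusted p = 0.00116), where 19.3%, 10.1%, 13.1% and 12.6% of all entries were called higher. The same hairpin gives miR-29b-3p, which was lower in each IP.

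miR-29a-5p showed no such rise. It had 0, 2.088, 4.383, 0 and 1.972 CPM in the brown fat IPs, against 5.217, 4.82, 14.05, 15.45 and 32.39 CPM in the inputs. It had 0 counts in all liver, muscle and hypothalamus IPs, against 8.82, 52.3 and 115.08 counts in their inputs. With 3 counts over the group as the limit that a count of 0 allows, its share of reads was at least 2.03-fold lower in the muscle IP and 3.33-fold lower in the hypothalamus IP, and no fold can be given in liver. The brown fat ratio, from 3 counts against 99, was 9.32-fold lower (exact 95% interval 3.1 to 46.0), and the fit with no filter called it at -2.96 (adjusted p = 0.000437), where 23.4% of all entries were called lower.

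miR-29c-5p stood between these. It had 4.59, 6.265, 4.943, 21.37 and 4.993 CPM in the brown fat IPs, against 11.9, 20.21, 32, 20.29 and 33.82 CPM in the inputs, and the groups overlapped because of IP 4. The change of -0.55 in brown fat (95% interval -1.39 to 0.30, adjusted p = 0.244) was not called with TMM, but with total count it was -1.66 (adjusted p = 0.00308). In muscle it was called lower at -2.42 (SE 0.70, adjusted p = 0.00281), at 2.439 ± 2.545 CPM in IPs against 14.07 ± 5.56 CPM in inputs (SD, n = 5 each). It passed the filter there through its inputs, with 4 counts in all IPs, and was tested in 5 of the 10 fits that left out 1 library, between -3.67 and -2.15, the lowest without muscle IP 4. It averaged 2.932 ± 3.034 CPM in IPs against 35.62 ± 25.99 CPM in inputs of hypothalamus, without overlap, and 1.66 ± 2.29 against 5.879 ± 0.892 CPM in liver. Over all 6 members, every IP lay below every input for 4 members in brown fat, 4 in liver, 5 in muscle and 5 in hypothalamus. Among all entries with counts that held for 20.6%, 26.1%, 27.1% and 18.8%. Many of those entries were scarce: in brown fat 1331 had counts and 305 passed the filter. The liver count of members includes miR-29a-5p, with 0 counts in the IPs against 8.82 in the inputs. These are too few to tell a fall from low depth.

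The balance of arms within a library does not depend on scaling. The 3 member 5p arms made up 5.45 ± 1.88% of the counts of the 6 members in the brown fat IPs, against 0.140 ± 0.024% in the inputs (SD, n = 5 each). These shares leave out miR-29b-2-5p, which is not a member, though miR-29b-3p from the same hairpin is in the denominator. The shares were 9.75 ± 4.93% against 0.483 ± 0.162% in muscle and 3.24 ± 1.83% against 0.161 ± 0.038% in hypothalamus. No IP overlapped an input in these 3 tissues, and each difference had a two-sided exact permutation p of 0.007937, the smallest that 5 against 5 libraries can give (adjusted p = 0.03968 over the 30 share tests run). That adjusted value rests on 6 tests tied at the smallest p: without hypothalamus input 4 only 4 tied, and the brown fat and muscle comparisons, with the same libraries and exact p, had an adjusted p of 0.0595, which misses the threshold. In the 3 liver IPs with at least 10 miR-29 counts the shares were 5.0%, 0% and 10.14%, against 0.0749% to 0.237% in the inputs (exact permutation p = 0.2143). With paired libraries of the same mouse the differences in brown fat, muscle and hypothalamus were 5.41, 9.26 and 3.08 percentage points, but 4 or 5 pairs cannot reach the threshold.

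miR-29b-1-5p carried most of the 5p counts in the IPs and few in the inputs. Summed over libraries it was 68.6% of the 5p counts in the IPs against 3.88% in the inputs of brown fat, 64.8% against 14.2% in liver, 60% against 2.26% in muscle and 74.0% against 2.49% in hypothalamus. The IP sums hold 51.93, 6.17, 10 and 12.17 counts of 5p arms.

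Among the inputs, each of the other tissues had a lower share of the 3 member 5p arms than muscle. Shares that include miR-29b-2-5p were not tested. The hypothalamus inputs lay between 0.118% and 0.210%, the brown fat inputs between 0.116% and 0.170% and the liver inputs between 0.0749% and 0.237%, against 0.298, 0.3658, 0.4562, 0.6269 and 0.670% in the muscle inputs, with no overlap. The difference from muscle was -0.323 percentage points for hypothalamus, -0.343 for brown fat and -0.335 for liver, with a two-sided exact permutation p of 0.007937 and an adjusted p of 0.03968 each, with the same limit: without hypothalamus input 4 it was 0.0595 for brown fat and liver and 0.068 for hypothalamus. The other pairs of inputs gave adjusted p-values of 0.4865 to 0.8554. The miR-29c hairpin showed it most: miR-29c-5p was 5.46 ± 1.26% of the miR-29c counts in hypothalamus, 5.95 ± 1.73% in brown fat and 6.91 ± 2.98% in liver inputs, against 16.4 ± 6.0% in muscle inputs. That split by hairpin was chosen after its values were seen and was not tested, and the highest liver input, at 10.9%, overlapped the lowest muscle inputs, at 10.1% and 10.76%.

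**Figure D4:**
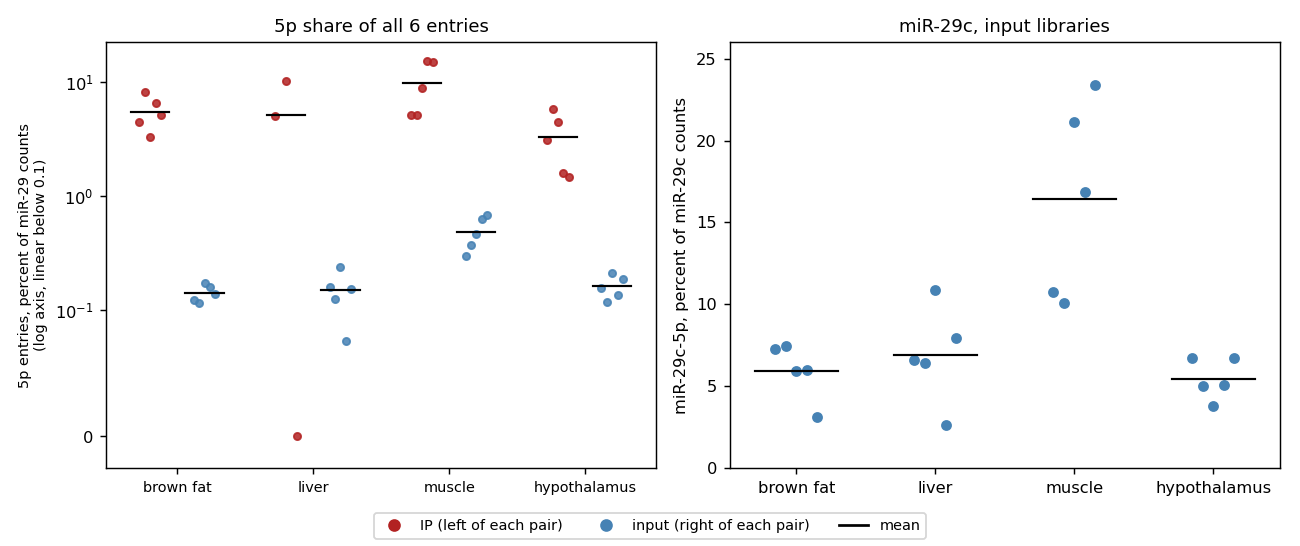
Left, the 5p entries as a percent of all miR-29 counts in each library (y axis, log scale, linear below 0.1), IP left of input, for libraries with at least 10 such counts; right, miR-29c-5p as a percent of the miR-29c counts in the inputs; bars are means. IP means of 3.24% to 9.75% stand above input means of 0.140% to 0.483%, and muscle, at 16.4%, has the highest miR-29c-5p share.

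Within the 3p arms, miR-29a-3p made up 96.0 ± 1.2% of the counts in IPs against 93.6 ± 1.8% in inputs of brown fat (SD, n = 5 each; exact permutation p = 0.03968, adjusted p = 0.1082). The share was 97.7 ± 2.8% in 3 IPs against 94.7 ± 1.5% in liver, 97.5 ± 2.4% against 94.7 ± 1.3% in muscle and 90.5 ± 7.5% against 90.5 ± 4.8% in hypothalamus. None of these differences passed the threshold, nor did those of the miR-29c-3p share, which was 0.791% in IPs against 1.47% in inputs of brown fat and 0.812% against 2.10% in muscle (exact permutation p = 0.0873 and 0.1111). Hypothalamus input 3 had the lowest miR-29a-3p share of the inputs, at 82.0%.

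Whether the depletion differed between brown fat, the tissue of the driver, and the others was tested as a difference of the IP changes. For miR-29a-3p the change in brown fat minus that in liver was 0.26 (95% interval -0.71 to 1.22, adjusted p = 0.795), and minus that in muscle 0.51 (-0.23 to 1.25, adjusted p = 0.365). The other tested members gave adjusted p-values of 0.238 or more in these comparisons, in which 8.44% and 21% of all entries were called in either direction. Against hypothalamus 34.4% of all entries were called, but the median of all entries was -1.30 and ran from -1.38 to 1.91 when single libraries were left out. The miR-29a-3p value there was -1.28 (adjusted p = 0.0603) and its sign turned in 17 of 20 such fits, up to 2.41, as did those of miR-29b-3p, miR-29c-3p and miR-29c-5p. With the sign turned, miR-29a-3p was called in 14 of these fits and miR-29c-5p in 17. Without hypothalamus input 3, miR-29a-3p and miR-29b-3p were called with the sign of the main fit. The calls thus went both ways with the library left out, so no direction is given. With total count the 3 differences of miR-29a-3p were 0.34 (-0.76 to 1.44) from liver, 0.39 (-0.67 to 1.45) from muscle and 0.29 (-0.91 to 1.49) from hypothalamus, none of them called.

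The base composition of the members was set beside their change, since 4-thiouracil enters RNA in place of uracil. The 3p arms hold 6 (miR-29a), 8 (miR-29b) and 7 (miR-29c) U, and the 5p arms hold 11 (miR-29a), 10 (miR-29b-1) and 9 (miR-29c). The member with the most U, miR-29a-5p, was at 0 in 3 IP groups, and the member with 10 was the only one higher in the IP. The GC content was 40.9%, 34.8% and 36.4% in the 3p arms and 36.4%, 40.9% and 50.0% in the 5p arms, in the same order, and the median over all entries with a sequence was 52.2%. Across tested entries, Spearman's rho of the IP change with percent U was 0.06 in brown fat, 0.15 in liver, 0.12 in muscle and -0.04 in hypothalamus, and with percent GC 0.39, 0.40, 0.35 and 0.43. These are descriptions across 168 to 266 entries that share libraries and depth. Entries under 42% GC, the range of all members but miR-29c-5p, had a median change of -2.09 in brown fat, -2.21 in liver, -3.68 in muscle and -2.52 in hypothalamus, and the others 0.22, -0.38, -0.64 and -0.43. The 3p arms lay below both medians in each tissue, and the part of composition in their fall was not tested.

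Markers of blood and vessel cells were lower in the IP. The summed level of the 2 endothelial miRNAs, miR-126a-3p and miR-126a-5p, was 1548 to 3030 CPM in IPs against 23840 to 57150 CPM in inputs of brown fat, and 71.22 to 503.6 against 3646 to 5536 CPM in muscle. It was 93.36 to 436.0 against 4104 to 6648 CPM in liver and 44.79 to 297.3 against 2307 to 6626 CPM in hypothalamus. The 2 leukocyte miRNAs, miR-142a-3p and miR-223-3p, summed to 2.374 to 8.037 CPM in IPs against 85.37 to 502.5 CPM in inputs of brown fat, and to at most 2.863 CPM in IPs of the other tissues against 5.017 to 113.3 CPM in their inputs. The 2 red cell miRNAs, miR-451a and miR-144-3p, were at 0 in all liver and hypothalamus IPs, at most 4.286 CPM in brown fat IPs and 0.7272 CPM in muscle IPs. Their inputs had 8.665 to 42.29 CPM in liver, 3.385 to 22.87 CPM in hypothalamus, 53.86 to 740.2 CPM in brown fat and 12.0 to 41.42 CPM in muscle. In the hypothalamus IPs 1 count is 4.355 to 14.75 CPM, and in the liver IPs 2.252 to 83.84 CPM. Red cell and leukocyte values there are thus near the counting limit. Markers of other tissues went both ways. miR-122-5p, a hepatocyte miRNA, was at 637.8 to 1298 CPM in IPs against 129.9 to 212.3 CPM in inputs of brown fat, and averaged 1697 against 169.5 CPM in muscle and 960.4 against 3564 CPM in hypothalamus. The other 2 liver miRNAs were lower in the IPs of these tissues. miR-192-5p averaged 238.9 against 1196 CPM in brown fat, 12.26 against 168.4 CPM in muscle and 28.36 against 1662 CPM in hypothalamus. miR-194-5p averaged 35.2 against 443.1 CPM, 2.709 against 55.27 CPM and 10.46 against 325.3 CPM in the same order. Of the striated muscle miRNAs in brown fat, miR-206-3p averaged 9162 CPM in IPs against 2863 CPM in inputs and miR-1a-3p 168400 against 144300 CPM, whereas miR-133a-3p averaged 1456 against 11470 CPM. The part of other cell types in the fall of miR-29 was not tested.

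The entries most like miR-29a-3p were found by Pearson's correlation of log2(CPM + 1), given as a description since all entries share libraries. Over the 40 libraries, among 384 entries averaging at least 10 CPM, they were miR-26a-5p (r = 0.981), miR-186-5p (0.962), miR-16-5p (0.945), miR-101a-3p (0.942) and miR-30c-5p (0.939). miR-29c-3p had r = 0.969 and miR-29b-3p 0.959, miR-29a-5p 0.868, miR-29c-5p 0.822 and miR-29b-1-5p -0.293. All 5 of the other entries fell in each IP, with log2 fold changes of -2.67 in brown fat and -3.96 in muscle for miR-26a-5p, and of -4.48 and -6.64 for miR-16-5p. The choice over IPs and inputs together favoured entries that are lower in the IP, so their fall is no separate result. Over the 20 inputs the most alike were miR-361-5p (0.977), miR-34a-5p (0.965), miR-652-3p (0.96), miR-103-3p (0.959) and let-7e-3p (0.95), of 392 entries. In the brown fat IP, miR-361-5p (-1.43, adjusted p = 0.000486) and miR-34a-5p (-1.01, adjusted p = 0.0424) fell, and miR-652-3p (-0.35), miR-103-3p (-0.34) and let-7e-3p (-0.25) were not called.

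Other miRNAs known for acting on matrix or fibrosis genes were listed with earlier results of these data known, so nothing particular to the list is read from its counts. Of 17 such entries other than miR-29, 13 of 16 tested were called lower and 1 higher in brown fat, 10 of 11 and 0 in liver, 13 of 15 and 1 in muscle, and 9 of 12 and 0 in hypothalamus. Over all entries 43.3%, 46.0%, 56.3% and 47.3% were called lower. Their median change was -1.73, -2.74, -3.64 and -4.11 in this order of tissues, beside -0.34, -0.78, -1.41 and -1.04 over all entries. miR-21a-5p, known for promoting fibrosis, fell in brown fat (-2.24, adjusted p = 0.000183) and hypothalamus (-5.76, adjusted p = 8.91e-06). miR-192-5p, a miRNA abundant in liver, fell in liver (-2.46, adjusted p = 2.85e-05), and miR-30a-5p in muscle (-4.25, adjusted p = 2.6e-10).

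Of 16 miRNAs known for acting on insulin signalling or glucose handling, 9 of 14 tested were called lower and 1 higher in brown fat, 9 of 13 and 1 in liver, 10 of 12 and 1 in muscle, and 6 of 10 and 1 in hypothalamus. The same shares over all entries apply, and the hypothalamus count is near its share of 47.3%. Their medians were -1.42, -1.76, -3.61 and -1.61. miR-375-3p, known from pancreatic islets, fell in brown fat (-4.33, adjusted p = 1.26e-08), and miR-143-3p had values of -0.49 in brown fat (adjusted p = 0.155) and -1.19 in muscle (adjusted p = 0.00572). miR-26a-5p stands on both lists. The 3p arms of miR-29 lay below the median of each list in every tissue.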

How the data were processed

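The authors made and deposited 1 table of estimated counts (expected counts, which need not be whole) for 1894 mature miRNA entries in 40 libraries from aligned, counted reads, and 0 columns were left without a sample. Libraries were made with a NEBNext small RNA kit, per the labels' protocols. Per the submitters' processing notes, fastp, STAR and featureCounts were used with the mouse genome mm10. Not given in the sources used here are tool versions, miRNA annotation, strand setting and the treatment of multi-mapping reads. Of the positive values 18.9% were whole within 0.001. Counts were rounded; no library total moved by more than 0.13%. Groups, mice and pools came from the labels. Replicates are libraries of separate mice within a group.

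Comparisons used the quasi-likelihood test of edgeR 4.0.16 (R 4.3.3) with TMM scaling, its filter on low counts by group and Benjamini-Hochberg adjustment over all entries tested, with a threshold of 0.05; standard errors are the log2 fold change divided by the root of F, and 95% intervals are approximate. The 10 libraries of a tissue entered each IP comparison, 20 each difference of IP changes, and the 20 inputs the tissue comparisons. Shares were compared by two-sided exact permutation tests over libraries with at least 10 counts. Exact intervals of count ratios are binomial, and a sum of 0 was set to 3 counts for a bound. The fits were tested on simulated data. Alternatives were DESeq2 1.42.0, RLE and total count scaling, no filter, a minimum mean of 10 CPM, all 40 libraries, the mouse as a block, each library left out, other count minimums for shares, and 2 added after seeing the data.

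The labels give the mouse: same-numbered IP and input libraries share it in 19 of 20 pairs (brown fat 5 does not). Deviations from group means correlated at -0.10 to 0.58 within the 19 pairs (median 0.14, above 0.1 in 10 pairs). The members and lists were chosen with earlier results of these data known. Beside the 6 members, the text names the 5 entries most like miR-29a-3p over 40 libraries and over 20 inputs, and examples from the 3 highest entries of each list.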

Additional observations from a re-analysis of the deposited data

Results flagged for a closer look

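Of 73 groups of 4 or 5 values examined, 14 had 1 library far from the other libraries of its group, by the gap to its neighbour over the range; chance gives about 1 in 20. Hypothalamus input 3 accounted for 7 of them. It was the highest of its group for miR-29b-3p (8762 CPM, next 1694), miR-29c-3p (2085 CPM, next 488.4), miR-29a-5p (43.63 CPM, next 9.8) and miR-29c-5p (81.68 CPM, next 29.02). Among the 3p counts it had the highest shares of miR-29b-3p (14.54%, next 6.622%) and miR-29c-3p (3.459%) and the lowest of miR-29a-3p (82.0%, next 91.5%). The IP of the same mouse had the highest miR-29b-3p share of its group as well, 21.17%, from 29.92 counts.

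In brown fat, IP 2 stood apart for miR-29b-1-5p (52.21 CPM, 12.5 counts) and IP 4 for miR-29c-5p (21.37 CPM, 4.5 counts). Liver input 4 was high for miR-29b-3p (724.5 CPM, next 265.0). The other 4 rest on 1 count or less: miR-29b-3p in liver IP 5 (4.815 CPM), miR-29c-3p in liver IP 3 (1.509 CPM) and in muscle IP 5 (4.546 CPM), and the miR-29c-3p share in muscle IP 5 (3.448%).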

How the results depend on the processing

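The fall of the 3p arms in each IP kept its direction and its call under every alternative run. For miR-29b-3p and miR-29c-3p, which passed the filter through their inputs, these calls were largely fixed by the filter. Only that of miR-29a-3p is free of this limit. With 1 library left out, miR-29a-3p stayed between -4.70 and -4.43 (brown fat), -5.44 and -4.32 (liver), -5.64 and -5.15 (muscle), and -5.72 and -4.98 (hypothalamus). For brown fat against liver inputs its value was 0.78 with no filter (adjusted p = 0.0883), 0.30 with the replicate block and 0.53 to 0.86 with 1 library left out. Against muscle it was 0.58 with RLE scaling, 0.74 with no filter and 0.73 with the replicate block, with no call in any of these, and 0.60 to 0.88 with 1 left out. With total count it was 0.99 for liver against muscle, 2.04 for hypothalamus against liver and 3.03 for hypothalamus against muscle, all called. With TMM these were 0.06, 0.35 and 0.40, none of them called. With total count miR-29c-5p reversed to 0.74 (brown fat) and 1.38 (hypothalamus) against muscle, and the cause was not tested. For hypothalamus against brown fat, miR-29a-3p ran from -0.63 to -0.22 with 1 library left out and was 0.04 with total count (adjusted p = 0.923). The difference of IP changes between brown fat and hypothalamus had a range of -1.44 to 2.41 (miR-29a-3p), -3.05 to 1.70 (miR-29b-3p), -2.48 to 2.01 (miR-29c-3p) and -0.62 to 3.31 (miR-29c-5p). The sign of each turned in 17 of 20 fits, as did that of the median of all entries. With the sign turned, miR-29a-3p was called in 14 of these fits and miR-29c-5p in 17. The called 5p share differences lost their call whenever 1 of their libraries was left out, where the smallest exact p is larger. With 1 left out they ran from 4.66 to 5.87 (brown fat), 7.93 to 10.4 (muscle) and 2.46 to 3.52 points (hypothalamus), and among inputs from -0.39 to -0.297, -0.381 to -0.288 and -0.369 to -0.276. The replicate block gave 5.41, 9.26 and 3.08, a minimum of 30 counts 2.46 in hypothalamus, and leaving out liver IP 4 and hypothalamus input 4 gave 5.31, 9.26, 3.07, -0.343, -0.335 and -0.316. Their adjusted p was then 0.068 in the 2 comparisons that lost hypothalamus input 4, and 0.0595 in the other 4, which kept their libraries and exact p and lost the call through the adjustment alone. The replicate block changed no call of a 3p arm in an IP. Depth limits the 5p arms and, in liver and muscle IPs, miR-29b-3p and miR-29c-3p.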

Other observations

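miR-29b-2-5p, the 5p arm of the other miR-29b hairpin, has an entry in the table and is not a member above. It averaged 4.124 ± 6.396 CPM in IPs against 7.282 ± 4.347 CPM in inputs of brown fat and 3.245 ± 7.257 against 33.97 ± 24.40 CPM in hypothalamus (SD, n = 5 each). It averaged 0.2465 ± 0.3415 CPM in IPs against 4.841 ± 2.379 CPM in inputs of muscle and had 0 counts in liver IPs against 12.5 counts in the inputs. Its mean was not higher in any IP, unlike that of miR-29b-1-5p. In the hypothalamus inputs it was more abundant than miR-29b-1-5p, at 261.55 counts against 10.5. The 3 member 5p arms together had 421.76 counts there. In muscle inputs it had 102.5 counts beside their 354.59, and in brown fat inputs 50 beside their 270.84. The 5p shares above leave it out and describe the member arms only.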
